A study of Macaca mulatta with 12 samples.

Results

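The miR-17-92 and miR-106b-25 clusters were followed in 12 small RNA profiles from 8 rhesus macaque (Macaca mulatta) tissues. The members were 10 of the 831 pre-miRNA hairpins in the study's list. They were mml-mir-17, mml-mir-18a, mml-mir-19a, mml-mir-20a, mml-mir-19b-1 and mml-mir-92a-1 of the miR-17-92 cluster, mml-mir-106b, mml-mir-93 and mml-mir-25 of the miR-106b-25 cluster, and the related single gene mml-mir-92b. There were 2 profiles each of small intestine, large intestine, kidney and muscle, and 1 each of occipital lobe, spinal cord, lung and liver. All tissues came from untreated wild-type macaques at an age of 36 months. The study's methods give 2 animals for the 12 profiles, so profiles share animals, and the labels do not say which animal gave which profile. The profiles are therefore not independent animals, and p-values and n here refer to profiles. In the edgeR tests below, the spread comes from the tissues with 2 profiles and from occipital lobe against spinal cord, fitted as 1 group. Liver and lung, with 1 profile each, add nothing to it. Those p-values do not measure the spread between organs. Depth ranged from 22118095 to 25579064 valid reads, and levels are given as RPTM, reads per 10000000 valid reads. A read was counted for a mature miRNA when it lay within 2 nucleotides of the listed start and end on the hairpin. Such reads made up 35.9% (liver) to 68.4% (kidney 1) of the valid reads, with 46.3% in lung. RPTM levels of different tissues also carry this difference.

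A polycistronic cluster is transcribed as 1 RNA, from which each hairpin is cut separately, so that the mature miRNAs of a cluster can differ in level. Bases 2 to 8 of a mature miRNA form the seed, which selects its targets. The miR-17-92 cluster is activated by MYC, is needed for normal development and B cells, and is known as an oncogenic cluster. The miR-106b-25 cluster lies within an intron of MCM7, a gene of DNA replication. Another, X-linked cluster, miR-106a-363, is a paralog of both.

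The mature sequences below show how the members fall into families, with the seed in capitals. They were read from the study's list, 5′ to 3′. The first family has the miR-17 seed.

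mml-miR-17-5p: cAAAGUGCuuacagugcagguagu

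mml-miR-20a-5p: uAAAGUGCuuauagugcaggua

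mml-miR-106b-5p: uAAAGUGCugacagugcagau

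miR-93-5p and miR-18a-5p are close to this family, but the seeds of their listed sequences differ from it.

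mml-miR-93-5p: aAAGUGCUguucgugcagguag

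mml-miR-18a-5p: uAAGGUGCaucuagugcagaua

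The miR-19 family has 2 members, which differ by U11C alone when positions are counted from 1 at the 5′ end of miR-19a-3p.

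mml-miR-19a-3p: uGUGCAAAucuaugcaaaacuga

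mml-miR-19b-3p: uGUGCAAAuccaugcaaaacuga

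The miR-92 family spans both clusters and the single gene. From miR-92a-3p to miR-92b-3p the differences were U10C, G21C and U22C, and all lie outside the seed.

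mml-miR-92a-3p: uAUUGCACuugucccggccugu

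mml-miR-25-3p: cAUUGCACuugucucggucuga

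mml-miR-92b-3p: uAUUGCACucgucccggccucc

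The reads of miR-93-5p did not start where the list places it. Over the 12 profiles, 99.3% of its 30203 reads started 1 nucleotide earlier, from 99.1% to 99.7% in single profiles. Its most abundant read, shown here with its own seed in capitals, therefore had the seed of miR-17-5p.

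most abundant mml-mir-93 5p read: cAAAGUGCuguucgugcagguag

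miR-19b-3p and miR-92a-3p could not be assigned to 1 cluster. The hairpins mml-mir-19b-1 and mml-mir-19b-2 give the same mature sequence, and so do mml-mir-92a-1 and mml-mir-92a-2, whose second copies are in the X-linked cluster. The opposite arms do tell the copies apart: the 5′ side of mml-mir-92a-1 had 383 reads and that of mml-mir-92a-2 had 3. Their 3′ sides had 269365 and 240504 reads, most of which match both hairpins. The share of miR-92a-3p that each copy gave cannot be read from these counts. For miR-19b these sides had 2 and 0 reads, too few to compare. miR-17-5p shared 6 of its 2604 reads with miR-106a-5p.

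In each cluster, the mature miRNA listed for the last hairpin had most of the reads. Reads of miR-92a-3p and miR-19b-3p from the X-linked copies could not be told apart. They are included in the sums of the miR-17-92 cluster here and below. miR-92a-3p made up 66.6% (lung) to 93.5% (muscle 2) of the summed leading arms of the miR-17-92 cluster, and miR-25-3p made up 75.1% (small intestine 1) to 86.2% (occipital lobe) of those of the miR-106b-25 cluster. miR-18a-5p was at the other end, with 252 reads over the 12 profiles against 273766 for miR-92a-3p. Its share of its cluster was 0.02% in muscle 1 and 0.24% in small intestine 1. These shares rest on reads that match a hairpin throughout. With reads that carry extra 3′ bases counted as well, miR-92a-3p made up 94.8% (spinal cord) to 97.7% (muscle 2) of its cluster, with 96.6% in lung, and miR-18a-5p made up 0.0056% (muscle 1) to 0.042% (small intestine 1). Ligation and amplification of small RNAs differ between sequences, so a comparison of levels between miRNAs is less certain than one of the same miRNA between profiles.

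**Figure D1:**
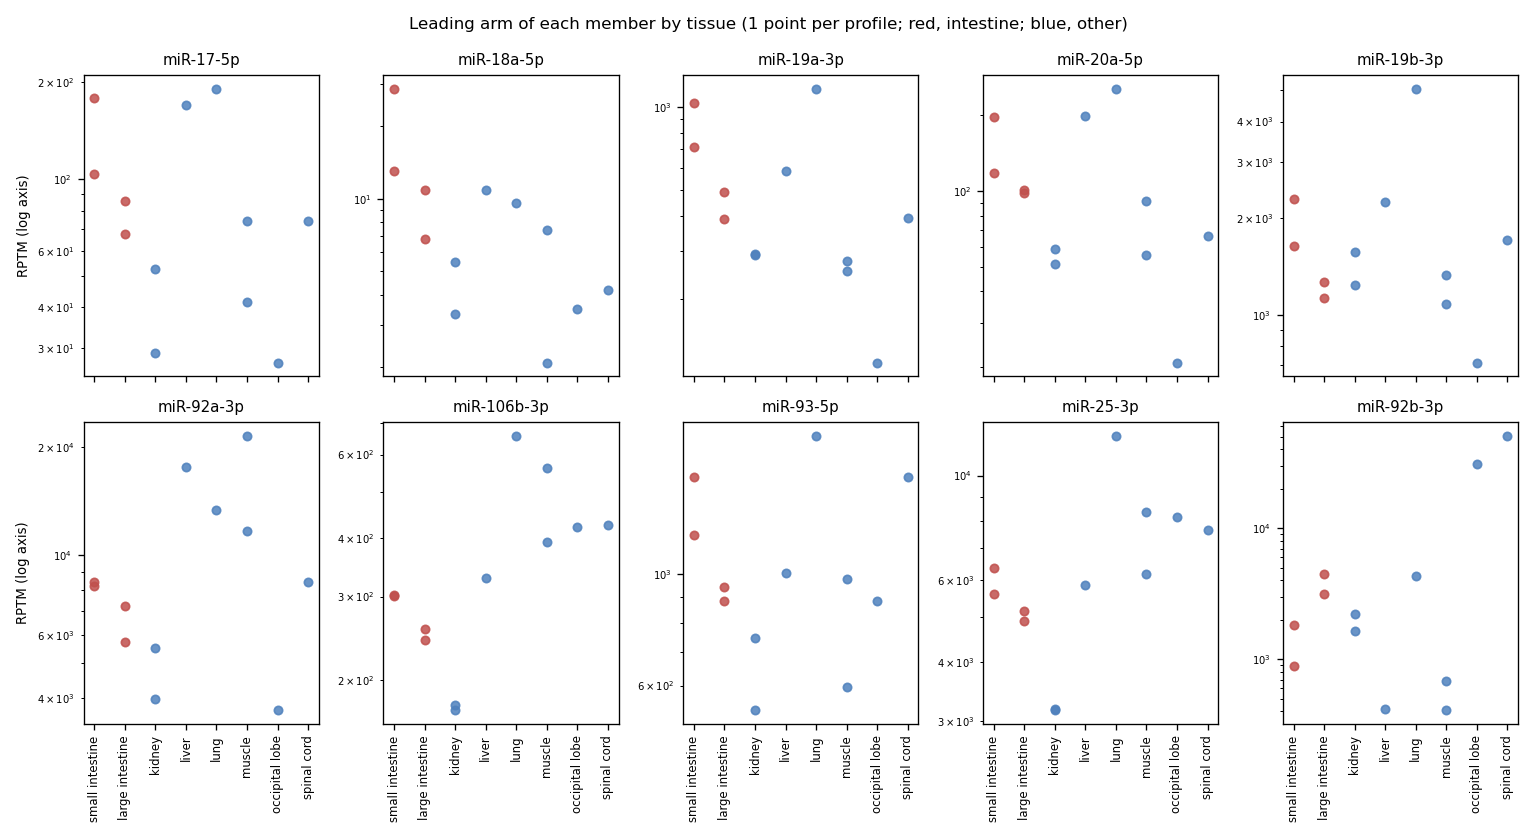
Level of the leading arm of each of the 10 members in RPTM (log axes, a scale of its own for each panel) by tissue. Each point is 1 profile, red for the intestine and blue for the other tissues. miR-92b-3p is highest in spinal cord and occipital lobe, and lung is the highest profile for miR-17-5p, miR-19a-3p, miR-20a-5p, miR-19b-3p, miR-106b-3p, miR-93-5p and miR-25-3p.

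miR-92a-3p, which is known for roles in endothelial and erythroid cells, was measured at 21533 and 11711 RPTM in the muscle profiles, 17675 RPTM in liver and 13345 RPTM in lung. The intestinal profiles had 8391, 8225, 7218 and 5720 RPTM. Spinal cord had 8442, kidney 5490 and 3955, and occipital lobe 3693 RPTM. The muscle profiles differed by 0.88 on the log2 scale, the largest gap of miR-92a-3p between profiles of a tissue. The red blood cell markers miR-451-5p and miR-144-3p summed to 5207 RPTM in muscle 2, 313 in muscle 1, 793 in liver and 1604 in lung, and to 49.3 to 117 RPTM in the intestine. Their part in these levels was not tested.

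These levels leave out most of miR-92a-3p, because only reads identical to a hairpin were counted. A further 1720206 reads were miR-92a-3p with 1 or 2 extra bases at the 3′ end that neither hairpin holds, which was 86.3% of all its reads. The tail was AA in 48.7% of these reads, AU in 17.5% and A in 10.4%. Among the 268 mature miRNAs with at least 1000 reads, tails included, the median share of tailed reads was 23.7% and that of miR-92a-3p ranked 6. The other leading arms had shares of 4.56% (miR-19b-3p) to 42.0% (miR-106b-3p).

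The tailed share of miR-92a-3p was lowest in muscle 2 (67.8%) and highest in lung (93.4%), so that counting the tails changed the order of the tissues. With them, miR-92a-3p was at 201257 RPTM in lung and 127528 RPTM in liver, and muscle had 66857 and 57539 RPTM. Small intestine had 79260 and 68863 RPTM, large intestine 45375 and 45227, kidney 43607 and 38532, spinal cord 43184 and occipital lobe 23628. Lung and liver then stood highest in place of muscle 2, and occipital lobe was lowest either way. What adds these bases, and whether the library preparation has a part in it, was not tested.

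**Figure D2:**
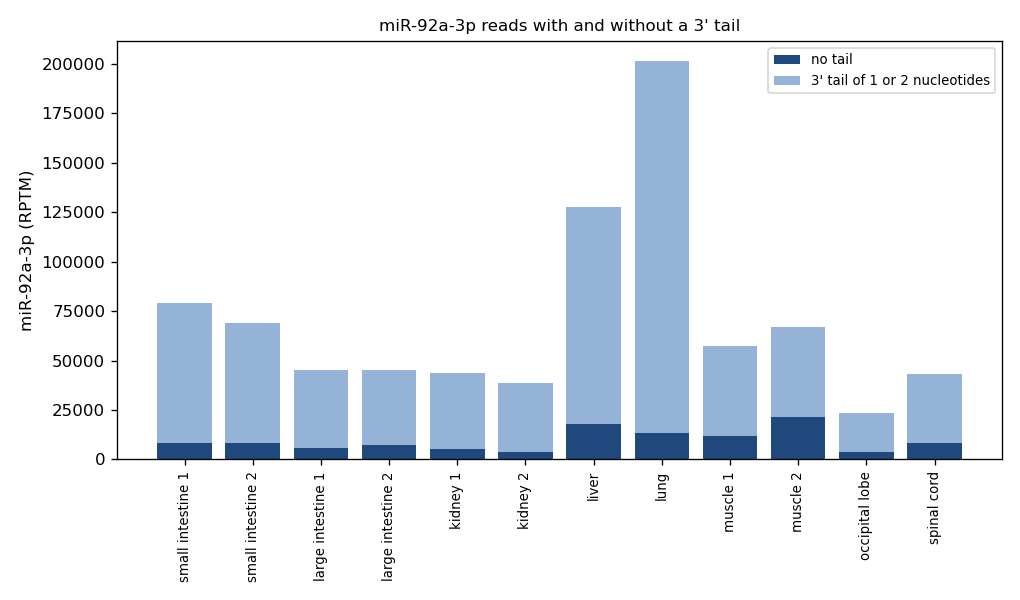
miR-92a-3p in RPTM for each of the 12 profiles, as reads that match a hairpin (dark) and reads with a 3′ tail of 1 or 2 nucleotides (light), stacked from 0. Tailed reads are the larger part in every profile, from 67.8% in muscle 2 to 93.4% in lung.

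Counted without tailed reads, the leading arms of the miR-17-92 cluster rose and fell together across profiles only in part. Over the 12 profiles, Pearson's r of log2(RPTM + 1) for its 15 pairs had a median of 0.77, with 0.95 for miR-17-5p and miR-20a-5p and 0.27 for miR-18a-5p and miR-92a-3p. In the miR-106b-25 cluster, r was 0.97 for miR-106b-3p and miR-25-3p, and 0.57 for miR-106b-3p and miR-93-5p. Between the clusters, the median of 18 pairs was 0.34. All points share the depth and composition of their libraries, so these values are descriptions. They leave out tailed reads, which were 86.3% of all reads of miR-92a-3p, and r was not computed with tailed reads counted. Profiles of the same tissue differed by a median of 0.43 on the log2 scale over the 10 leading arms, while the median over all 370 tested miRNAs was 0.47 to 0.57 in the 4 tissues.

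Lung was the highest profile for 7 of the 10 leading arms. miR-25-3p, for example, had 12147 RPTM in lung and 3162 RPTM (kidney 2) to 8360 RPTM (muscle 2) elsewhere. miR-19b-3p had 5070 RPTM in lung and 710 RPTM (occipital lobe) to 2300 RPTM (small intestine 1) elsewhere. The 5 leukocyte markers summed to 9306 RPTM in lung and to 830 to 3978 RPTM in the other profiles. Lung has 1 profile, so its values have no replicate, and the part of leukocytes was not tested. In tissue samples like these, more cells of a type and more RNA per cell cannot be told apart.

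The sum of the miR-17-92 leading arms was 0.48 times that of the miR-106b-25 arms in occipital lobe and 2.91 times in liver, with a median of 1.47. It was the smaller sum in occipital lobe alone. With tailed reads counted, the ratio ran from 2.21 in occipital lobe to 14.7 in liver. Without tailed reads, the intestinal profiles were at 1.19 and 1.505 (large intestine) and 1.63 and 1.38 (small intestine). With tailed reads, they were at 6.17 and 6.77 (large intestine) and 9.26 and 7.75 (small intestine). Either way they lay inside the range of the others.

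The epithelium of the gut renews itself throughout life, and the intestinal profiles were set against the other organs for that reason. In edgeR's quasi-likelihood test with TMM factors, which scale each profile to the bulk of its miRNAs, and with a threshold of 0.05 on adjusted p, 8 of the 12 tested mature miRNAs of the members were higher in the intestine, against 20.3% of all 370 tested. A miRNA was tested when its mean was at least 5 RPTM and its SD at least 1 RPTM, which 12 of the 17 mature miRNAs listed for the members met. None was lower, against 14.1% of all; at an unadjusted p under 0.05 the count of lower ones was also 0, and DESeq2 gave 0 too. The higher ones were 5 of 7 from the miR-17-92 cluster (miR-17-5p, miR-17-3p, miR-18a-5p, miR-19a-3p and miR-20a-5p), 2 of 4 from the miR-106b-25 cluster (miR-93-5p and miR-106b-5p), and miR-92b-3p. The median log2 fold change was 0.99 over the 12 and -0.10 over all tested.

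This result rested on the scaling. With valid reads in place of TMM factors, 0 of the 12 passed, with miR-18a-5p alone at an unadjusted p under 0.05, and the median of all miRNAs moved from -0.10 to -0.996. All miRNAs then split into 30 higher and 162 lower, compared with 75 and 52. DESeq2 called 9 members, with a median log2 fold change of 1.02 over the members and -0.07 over all miRNAs. The smooth muscle markers, mostly miR-143-3p, took 2345566 to 3568840 RPTM in the intestine and 103065 to 1480841 RPTM elsewhere, so they held a larger part of the intestinal libraries. The intestinal markers miR-192-5p, miR-194-5p and miR-215-5p took 452851 to 2063772 RPTM in the intestine and 4231 to 1214181 RPTM elsewhere. The part of either set in the shift between scalings was not tested. Without large intestine 2 or without small intestine 1 the count was 3, and it was 5 without any one of kidney 1, kidney 2, large intestine 1, muscle 2 or small intestine 2.

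miR-18a-5p had the largest fold change of the 12. Small intestine had 28.6 and 13.1 RPTM and large intestine 10.9 and 6.80 RPTM. The other profiles had a lowest, median and highest of 2.09, 4.83 and 10.9 RPTM. Large intestine overlapped liver, lung and muscle 2 on this scale, and small intestine was above all other tissues. Scaled by TMM, the intestine had 20.2 to 76.9 and the other profiles 3.06 to 17.6 reads per 10000000, with no overlap. Its log2 fold change was 2.06 ± 0.48 (SE; edgeR adjusted p = 0.0064), and 1.15 ± 0.50 with valid reads (edgeR adjusted p = 0.079). Only 252 reads over the 12 profiles stand behind it.

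miR-19a-3p had 1028 and 712 RPTM in small intestine and 492 and 393 RPTM in large intestine. The other profiles had a lowest, median and highest of 118, 291 and 1165 RPTM. Lung was above every intestinal profile, and kidney, muscle and occipital lobe were below them all. The log2 fold change was 1.48 ± 0.29 (SE; edgeR adjusted p = 0.0022) under TMM and 0.56 ± 0.32 with valid reads (edgeR adjusted p = 0.18).

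miR-17-5p and miR-20a-5p, which repress regulators of the cell cycle, had similar levels. miR-17-5p had 178 and 104 RPTM in small intestine, 85.5 and 67.6 in large intestine, 192 in lung, 170 in liver and 26.9 to 74.5 in the others. miR-20a-5p had 197 and 118 RPTM in small intestine, 101 and 98.2 in large intestine, 255 in lung, 198 in liver and 20.9 to 91.1 in the others. Liver and lung therefore overlapped or exceeded the intestine, and the other tissues were lower or overlapped. The log2 fold changes were 1.26 ± 0.32 and 1.29 ± 0.32 (SE; edgeR adjusted p = 0.0091 and 0.0079).

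miR-93-5p had 1557 and 1196 RPTM in small intestine and 941 and 884 RPTM in large intestine, and 536 (kidney 2) to 1878 RPTM (lung) elsewhere. Scaled by TMM, its intestinal profiles were all above the others, as were those of miR-106b-5p. The log2 fold changes were 1.05 ± 0.24 and 0.95 ± 0.32 (SE; edgeR adjusted p = 0.0055 and 0.037).

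Among the miRNAs that did not pass were the most abundant of each cluster. miR-92a-3p had a log2 fold change of 0.45 ± 0.26 (edgeR adjusted p = 0.20), miR-25-3p 0.62 ± 0.24 (edgeR adjusted p = 0.060), miR-19b-3p 0.64 ± 0.25 (edgeR adjusted p = 0.067) and miR-106b-3p 0.44 ± 0.25 (edgeR adjusted p = 0.20). All these changed sign with valid reads, to between -0.48 and -0.28. miR-92b-3p passed under TMM at 0.83 ± 0.27 (edgeR adjusted p = 0.031) and was at -0.07 with valid reads.

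**Figure D3:**
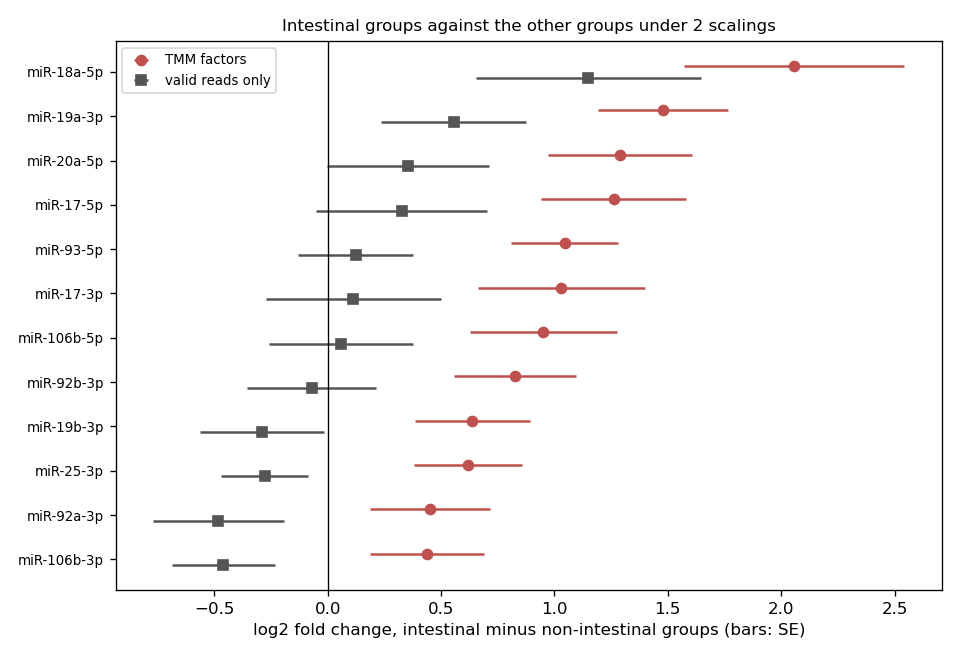
log2 fold change of the 12 tested mature miRNAs of the members, intestinal minus non-intestinal groups, with bars for 1 SE, under TMM factors (red circles) and with valid reads alone (grey squares). All points lie above 0 under TMM, and with valid reads they move left by a similar amount, so that miR-106b-3p, miR-19b-3p, miR-25-3p, miR-92a-3p and miR-92b-3p lie below 0.

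Ratios between members of the same profile do not depend on this scaling. Of 9 ratios, 1 differed between the intestine and the rest. The log2 ratio of miR-19a-3p to miR-19b-3p was -1.16 and -1.20 in small intestine and -1.20 and -1.69 in large intestine. In the other 8 profiles it ran from -2.59 (occipital lobe) to -1.95 (liver). The groups did not overlap: the mean was -1.31 ± 0.25 (SD, n = 4) against -2.21 ± 0.21 (SD, n = 8), a difference of 0.90 (exact two-sided permutation test, p = 0.0040, adjusted p = 0.036 over the 9 ratios).

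That p is the smallest that 12 profiles allow. Over the 8 tissue means, where the smallest possible p is 0.071, the difference was 0.89 (exact permutation test, p = 0.071, adjusted p = 0.43). Reads of miR-19b-3p can come from either of its hairpins, so this ratio may not be that of 1 transcript. The difference was 0.84 to 1.02 when any profile was left out, and 0.90 when only reads identical to the mature miRNA were kept (exact permutation test, adjusted p = 0.073).

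Of the other ratios, miR-92a-3p over miR-17-5p was lower in the intestine by a log2 difference of -0.94 (exact permutation test, p = 0.032, adjusted p = 0.15), and miR-18a-5p over miR-17-5p differed by 0.66 (exact permutation test, p = 0.053, adjusted p = 0.16). These did not pass the adjustment. The cluster sums differed by -0.08 (exact permutation test, p = 0.79, adjusted p = 0.90).

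**Figure D4:**
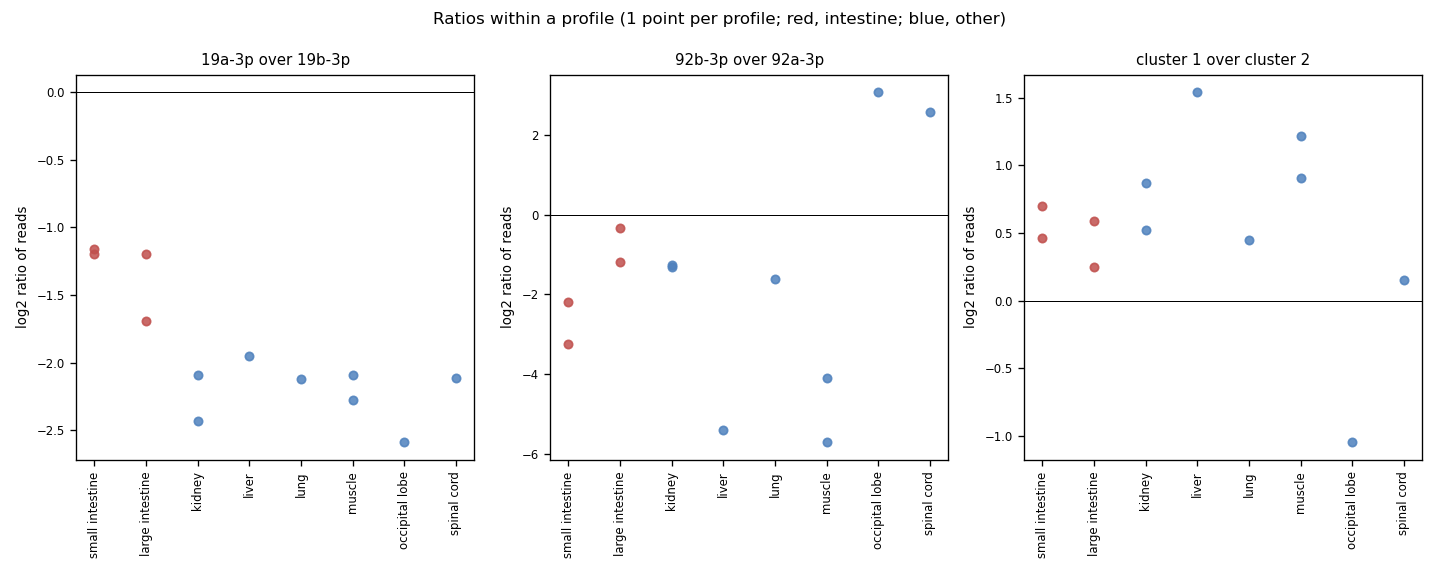
log2 ratio of reads within a profile for miR-19a-3p over miR-19b-3p, miR-92b-3p over miR-92a-3p and the summed leading arms of the clusters, by tissue, with 1 point per profile. The 4 intestinal profiles lie above all others for miR-19a-3p over miR-19b-3p, and miR-92b-3p exceeds miR-92a-3p in occipital lobe and spinal cord alone.

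Between small and large intestine, 0 of 12 members passed in either direction, against 1.62% and 0.27% of all miRNAs for higher and lower in edgeR's test. At an unadjusted p under 0.05 there was 1, miR-92b-3p, and DESeq2 called 0. miR-92b-3p had 883 and 1811 RPTM in small intestine and 4507 and 3142 RPTM in large intestine, without overlap. Its log2 difference was -1.58 ± 0.45 (SE; edgeR adjusted p = 0.15). Its unadjusted p in edgeR was 0.0040, and it did not pass the adjustment over the 370 miRNAs.

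miR-92b-3p was the member with the widest range. Its gene stands apart from the clusters, and it is known for expression in the nervous system. It reached 50689 RPTM in spinal cord, with 31071 in occipital lobe. Large intestine had 4507 and 3142, lung 4339, kidney 2202 and 1641, and small intestine 1811 and 883 RPTM. Muscle had 680 and 409 and liver 414 RPTM. The neural profiles were far above all others, and liver and muscle were lowest.

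In edgeR's test of the neural group against the other groups, miR-92b-3p was higher by 3.62 ± 0.29 on the log2 scale (SE; edgeR adjusted p = 3.9e-07), and by 4.81 with valid reads. It was the 1 member higher there, against 43.8% of all miRNAs. The ratio of miR-92b-3p to miR-92a-3p does not depend on the scaling, and it was log2 3.07 in occipital lobe and 2.59 in spinal cord and -5.72 to -0.34 elsewhere. With tailed reads counted, it was 0.89 in occipital lobe, 0.65 in spinal cord and -7.24 (liver) to -2.58 (large intestine 1) elsewhere, so the neural profiles stayed above 0 by a smaller margin. The neuronal markers miR-9-5p and miR-124a-3p summed to 394379 (occipital lobe) and 264597 RPTM (spinal cord), and to at most 992 RPTM elsewhere. miR-92b-3p was higher in spinal cord than in occipital lobe, the reverse of these markers. The oligodendrocyte markers miR-219-5p and miR-338-3p had the same order as miR-92b-3p, at 8412 RPTM in spinal cord, 2887 in occipital lobe and at most 561 elsewhere. The part of either cell type was not tested.

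Under TMM, 8 of the 12 members were lower in the neural group, against 24.3% of all miRNAs. They were the 7 tested miRNAs of the miR-17-92 cluster and miR-93-5p, with log2 fold changes of -2.73 (miR-20a-5p) to -0.95 (miR-93-5p). miR-20a-5p was at 20.9 (occipital lobe) and 66.5 RPTM (spinal cord), and at 51.2 RPTM (kidney 2) to 255 RPTM (lung) elsewhere. The neural group has 1 profile of each of 2 tissues, and spinal cord overlapped the other organs. With valid reads, miR-20a-5p alone remained lower (-1.47 ± 0.51, SE; edgeR adjusted p = 0.023), while miR-106b-3p, miR-106b-5p, miR-25-3p and miR-93-5p changed sign, and the median of all miRNAs moved from 0.88 to 1.97. miR-32-5p, a miRNA with the miR-92 seed from outside the clusters, was also lower, at 16.5 RPTM in occipital lobe, 41.4 in spinal cord and 31.6 (small intestine 2) to 219 RPTM (lung) elsewhere (log2 fold change -2.52 ± 0.52, SE; edgeR adjusted p = 0.00085). The X-linked miR-363-3p has the same seed and went the other way. Its log2 fold change was 1.08 ± 0.38 (SE, edgeR adjusted p = 0.023), and 2.31 with valid reads (edgeR adjusted p = 0.00058).

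In muscle against the other groups, 1 of 12 members was lower, miR-92b-3p, with a log2 fold change of -2.44 ± 0.41 (SE; edgeR adjusted p = 0.00052), against 15.4% of all miRNAs lower. Likewise 1 was higher, miR-92a-3p, by 0.97 ± 0.31 (SE; edgeR adjusted p = 0.029), against 22.7% of all miRNAs higher. The second call did not hold when tailed reads were counted (log2 fold change -0.09, edgeR adjusted p = 0.85), nor without muscle 2 (0.56, edgeR adjusted p = 0.37) or kidney 2 (0.96, edgeR adjusted p = 0.050).

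In kidney, 0 of 12 members passed in either direction, against 13.0% of all miRNAs higher and 4.59% lower; miR-25-3p alone had an unadjusted p under 0.05, and DESeq2 called 0. With valid reads, 2 were lower, miR-25-3p (log2 fold change -1.15, edgeR adjusted p = 0.012, against -0.73 under TMM) and miR-106b-3p (-1.14, edgeR adjusted p = 0.029, against -0.71 under TMM). Over all 370 miRNAs, 42 were then lower, compared with 17 under TMM. The X-linked miR-363-3p, which has the miR-92 seed, differed there. It had 379 and 232 RPTM in kidney, 194 in spinal cord, 76.9 in occipital lobe and 3.63 (liver) to 38.9 RPTM (large intestine 1) elsewhere. Its log2 fold change in kidney was 4.08 ± 0.35 (SE; edgeR adjusted p = 1.0e-05). The other X-linked miRNAs, miR-19b-3p and miR-92a-3p aside, were near the detection limit, where 1 read is worth 0.39 to 0.45 RPTM. miR-106a-5p was at 10.95 and 4.55 RPTM in kidney and at most 4.18 elsewhere, and miR-18b-5p had 0. miR-20b-5p was at 10.6 and 5.37 RPTM in kidney and at most 4.60 elsewhere. Its sequence is listed for 2 hairpins (also as miR-20b-2-5p), so its reads could not be assigned to the X-linked hairpin alone.

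The arms of the hairpins were used very unequally, and mml-mir-106b stood out within its family. Its 3p arm held 78.9% (small intestine 1) to 92.4% (muscle 1) of the reads, although the 5p arm carries the miR-17 seed. In mml-mir-17, mml-mir-20a and mml-mir-93 the 5p arm led. The 3p share was 10.04% (liver) to 34.2% (muscle 1) for mml-mir-17, 0 to 2.58% for mml-mir-20a, and 0.21% (muscle 1) to 1.79% (occipital lobe) for mml-mir-93. mml-mir-18a was the most even, at 13.6% (small intestine 1) to 56.5% (spinal cord), but with 252 and 89 reads on its arms in all.

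For 0 of the 7 arm ratios did the difference between the intestine and the rest pass the test. That of mml-mir-18a was -0.71 in log2(3p/5p) (exact permutation test, p = 0.18, adjusted p = 0.62). The ratio of mml-mir-92b says little of arm use, since its 5p arm had 38 reads in all and was detected in 5 of 12 profiles, so that elsewhere the ratio is the 3p count over the pseudocount of 0.5 reads. The spread of these ratios was wide, with an SD of 0.87 over the non-intestinal profiles for mml-mir-18a, so that smaller differences could not be seen.

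miR-106b-3p had no single start. Reads that began 1 nucleotide before the listed start made up 19.6% to 58.1% of a profile, and those that began 1 nucleotide after it made up 38.6% to 76.7%. The listed start itself had 4.75% of all its reads. The forms have different seeds, since each start moves the seed by its own distance. By contrast, 99.4% of miR-92b-3p and 98.6% of miR-92a-3p reads began at the listed base. At the 3′ end, 44.9% to 86.7% of miR-92b-3p reads ended at the listed base.

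For the shares of reads with a 3′ tail, no difference between the intestine and the rest passed the test. They were 83.8% ± 2.05 (SD, n = 4) against 80.7% ± 7.36 (SD, n = 8) for the miR-17-92 cluster (exact permutation test, p = 0.49, adjusted p = 0.74), in which miR-92a-3p is most of the reads. For the miR-106b-25 cluster they were 15.7% ± 1.499 and 16.5% ± 1.96 (SD, n = 4 and 8; exact permutation test, p = 0.49, adjusted p = 0.74). For mml-mir-92b they were 43.2% ± 6.04 and 43.9% ± 11.1 (SD, n = 4 and 8; exact permutation test, p = 0.90, adjusted p = 0.90). Over all mature miRNAs the shares were 29.8% and 27.9%.

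Single mismatches within the mature sequences were searched for in reads without a 3′ tail, while the totals they were set against included tailed reads. The percentages can therefore be too low, most of all for miR-92a-3p, with 86.3% of its reads tailed. A mismatch there could be missed. The only one in at least 5% of reads and at least 10 reads of a profile was C17U of miR-106b-5p, with positions counted from 1 at its 5′ end. It was in 10 of 160 reads of muscle 2 (6.25%, 95% Wilson interval 3.43% to 11.1%) and 10 of 176 reads of spinal cord (5.68%, 3.12% to 10.1%). The intervals overlap and cover counting error only.

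Of the other miRNAs, those most like the miR-17-92 cluster over the 12 profiles were found by Pearson's r of log2(RPTM + 1) to the mean z-score of its leading arms, among 358 candidates. They were miR-142-3p (r = 0.90) and miR-142-5p (r = 0.89), which are specific to blood cells, miR-15b-5p (r = 0.83), miR-223-3p (r = 0.82), a myeloid miRNA, and miR-32-5p (r = 0.76), which shares the miR-92 seed. miR-142-3p had 189 and 121 RPTM in small intestine, 153 in lung and 8.26 in occipital lobe. For the miR-106b-25 cluster they were miR-34c-5p (r = 0.83), miR-15a-5p (r = 0.82), miR-150-5p (r = 0.79), miR-197-3p (r = 0.79) and miR-331-5p (r = 0.79). miR-150-5p, a lymphocyte miRNA, had 6881 RPTM in lung and 128 RPTM in kidney 2. These are descriptions over 12 points of 8 tissues, with tailed reads left out.

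The tissue labels were checked against 25 marker miRNAs. miR-122a-5p had 7320 RPTM in liver and at most 4.37 RPTM elsewhere, the skeletal muscle markers summed to 130760 and 145354 RPTM in muscle and to at most 917 RPTM elsewhere, and the neuronal markers were highest in the neural tissues. The intestinal markers miR-192-5p, miR-194-5p and miR-215-5p were highest in small intestine, but liver (1214181 RPTM) was above both large intestine profiles (1002390 and 452851 RPTM).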

How the data were processed

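The authors deposited, for each profile, counts of identical small RNA sequences of at least 18 nucleotides from adapter-trimmed, quality-filtered reads, without alignment. From these counts, reads identical to a stretch of a listed hairpin were assigned to a mature miRNA when both ends lay within 2 nucleotides of the listed ones, and reads with a 3′ tail of 1 or 2 bases were counted apart. Depth was 22118095 to 25579064 valid reads, so 1 read was 0.391 to 0.452 RPTM. Intervals cover counting error only.

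The 370 mature miRNAs that averaged 5 RPTM or more, with an SD of 1 RPTM or more, were tested in edgeR 4.0.16 (R 4.3.3; quasi-likelihood, TMM factors, 7 groups with the neural tissues as 1, Benjamini-Hochberg threshold 0.05), with DESeq2 1.42.0 as an alternative. The library size under TMM was the sum of all mature miRNA reads; 3 sums were tried, and this one was kept after their results were seen. Ratios, arms and tails were compared by exact two-sided permutation tests (scipy 1.17.1) with a pseudocount of 0.5 reads. The edgeR step was tested on simulated data with equal numbers of miRNAs raised and lowered in the intestine. Such data do not test the choice between TMM factors and valid reads. Replicate numbers were not used to pair the profiles in the main fit, since the labels do not tie them to animals. The members and all lists were chosen with earlier results of these data known. All members, their X-linked paralogs, miRNAs with a member's seed, and the 5 miRNAs most like each cluster were named.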

Additional observations from a re-analysis of the deposited data

Results flagged for a closer look

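Reads were found outside the listed mature miRNAs of the members. The 5′ side of mml-mir-92a-1, where no mature miRNA is placed, had 383 reads over the 12 profiles, and that of mml-mir-25 had 446. A further 1720206 reads extended miR-92a-3p by a tail of 1 or 2 nucleotides absent from both hairpins. No control samples exist for these reads, so their background level is not known. All 3 counts are above the 3 reads that a count of 0 allows, but that bound covers counting error only and not wrongly assigned reads. The tails were singled out after their share was seen.

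A check for profiles far from the others of their group was made on 20 groups of values and marked none.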

How the results depend on the processing

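The count of members higher in the intestine was 8. It was 0 with valid reads, 5 with TMM factors on valid reads or without the filter, and 3 with only identical reads, where 7 members were tested. Over all 370 miRNAs, 75 were higher in the main fit, 30 with valid reads and 59 with TMM factors on valid reads. Leaving out a profile gave 3 to 10: 3 without large intestine 2 or small intestine 1, and 5 without kidney 1, kidney 2, large intestine 1, muscle 2 or small intestine 2. With valid reads, the fold changes of miR-106b-3p (-0.46), miR-19b-3p (-0.29), miR-25-3p (-0.28), miR-92a-3p (-0.48) and miR-92b-3p (-0.070) changed sign, and the median of all miRNAs moved from -0.10 to -0.996. In the neural contrast, valid reads gave 1 member lower, with 46 of all 370 miRNAs lower, and turned miR-106b-3p (0.35), miR-106b-5p (0.37), miR-25-3p (0.38) and miR-93-5p (0.24). Identical reads gave 5 lower, no filter gave 2 higher, and leaving out a profile gave 7 to 10 lower. The rise of miR-92b-3p there was called in all 10 fits with all profiles, at 2.995 to 4.81.

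In muscle, the count of higher members fell from 1 to 0 with tailed reads (miR-92a-3p -0.093), identical reads, equally split reads, and without kidney 2 or muscle 2, a range of 0 to 1. The count of lower ones was 2 without occipital lobe or spinal cord, a range of 1 to 2. In kidney, 2 were lower with valid reads and 0 to 1 when a profile was left out, 1 without spinal cord. The replicate block on the 8 numbered profiles gave 6 members higher in the intestine, and in muscle 0 higher and 6 lower. The same profiles with no replicate block gave 7 in the intestine, and in muscle 0 and 8. Differences between same-tissue profiles of different number had a mean correlation of 0.03 over 6 tissue pairs (-0.14 to 0.15). This cannot tell whether the numbers mark animals, because a small or tissue-specific animal effect would also give values near 0.

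Of the ratios, 0 of 9 passed with identical reads or with any profile left out. The smallest adjusted p that 11 profiles allow is 0.055, so the latter says nothing of stability. Identical reads turned miR-18a-5p over miR-17-5p (-0.078) and miR-20a-5p over miR-17-5p (-0.39), and the mml-mir-106b arms (0.58). Tailed reads turned the ratio of the clusters (0.11), miR-19b-3p over miR-92a-3p (-0.019) and the mml-mir-92b arms (-0.080). A pseudocount of 5 reads turned the mml-mir-20a arms (-0.42), and tails of 1 nucleotide turned the share of mml-mir-92b (0.83). With a profile left out, differences crossed 0 for the ratio of the clusters (-0.31 to 0.061), miR-19b-3p over miR-92a-3p (-0.023 to 0.39), miR-20a-5p over miR-17-5p (-0.037 to 0.13), miR-92b-3p over miR-92a-3p (-0.59 to 0.67), the arms of mml-mir-93 (-0.18 to 0.24) and mml-mir-20a (-0.30 to 0.40), and the mml-mir-92b tails (-3.65 to 1.11). None of these had passed a test. The causes were not tested. The choices of tailed reads, of the library sizes under TMM and of the fit with no block were made after seeing the data.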
